A study of Mus musculus with 3 samples.

Results

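The genes described here build, move along and regulate microtubules: kinesin and dynein motors with their adaptors, tubulins, microtubule-associated proteins (MAPs), stathmins, intraflagellar transport proteins and centrosome proteins. They were chosen by gene symbol alone (the families Kif, Klc, Dync, Dynl, Dctn, Dnah, Tuba, Tubb, Tubg, Map1, Map2, Map4, Map6, Map7, Mapt, Mapre, Dcx, Ift, Clip and Cep, with Stmn1, Stmn3, Stmn4, Pafah1b1, Nde1, Ndel1 and Pcm1), without use of any measured value. Earlier results of these data were known when the genes were chosen. The rule took 117 probe sets of the 12488 on the array and 84 of the 8251 named genes. All arrays belonged to 1 group: neural retina of wild-type mice at postnatal day 7 (P7), on a mixed 129/SvEv and C57BL/6 background, taken from litters that also held Rp1-/- animals, and dissected between 1 and 2 pm. Total RNA from 3 such samples, each combining the retinas of 3 to 4 mice, was hybridised to Affymetrix MG-U74Av2 arrays, which read a gene with 1 or more sets of short oligonucleotide probes. No treated or mutant sample was used, so the data show which of these genes gave signal and how far the 3 pools, numbered only to name them, differed.

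Microtubules are polymers of alpha and beta tubulin that grow from gamma tubulin at the centrosome or the basal body of a cilium. Kinesins carry most cargo toward the growing plus end and cytoplasmic dynein, with its activator dynactin, toward the minus end. In the retina these tracks serve the axons and dendrites of neurons, the movement of nuclei in newborn cells, and the connecting cilium of photoreceptors, through which intraflagellar transport supplies the forming outer segment. Rp1 itself belongs to the doublecortin family of microtubule-binding proteins and lies in that cilium's axoneme.

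All intensities below were scaled to a common array median, and values under a floor of 42.2 were set to it. A gene was counted as above background when the 1 probe set chosen for it passed, in every pool, the 90th percentile of 53 genes whose products belong to other organs (liver, pancreas, pituitary, testis, skin and the like). That bar was 288, 263 and 304 in pools 1, 2 and 3, and 45.8% of all genes passed it. Of the rod photoreceptor marker list 12 of 14 measured genes passed, and of the muscle list 1 of 13. Lens genes differed between the pools: the summed intensity of the 12 measured ones was 26967, 127518 and 136902, lowest in pool 1, where the 3' to 5' ratio of the Actb control transcript was also highest (1.81, against 1.27 and 1.30 in pools 2 and 3). The same ratio for the Gapdh control transcript was 0.87, 0.79 and 0.81 in pools 1, 2 and 3. Red blood cell genes (5 measured) summed to 3863, 7951 and 3486, highest in pool 2. The part of these in the pool differences below was not tested. The brightness of a probe set depends on its own sequence, so the level of one gene is not compared with that of another. These are whole-tissue samples, in which fewer cells of a type and less RNA per cell cannot be told apart.

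Microtubule genes were above background in all 3 pools for 53 of 84 (63.1%), beside 45.8% of all genes on the array. A further 10 passed the bar in 1 or 2 pools and 21 in none. Every measured gene of dynactin (5 of 5), intraflagellar transport (6 of 6), the stathmins (3 of 3), the kinesin light chains (2 of 2) and the gamma tubulins (2 of 2) passed. Of the kinesin motors 6 of 21 passed, and of the centrosome genes 2 of 6. With the bar at the 75th percentile of the unrelated genes, 66 microtubule genes and 61.7% of all genes passed.

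**Figure D1:**
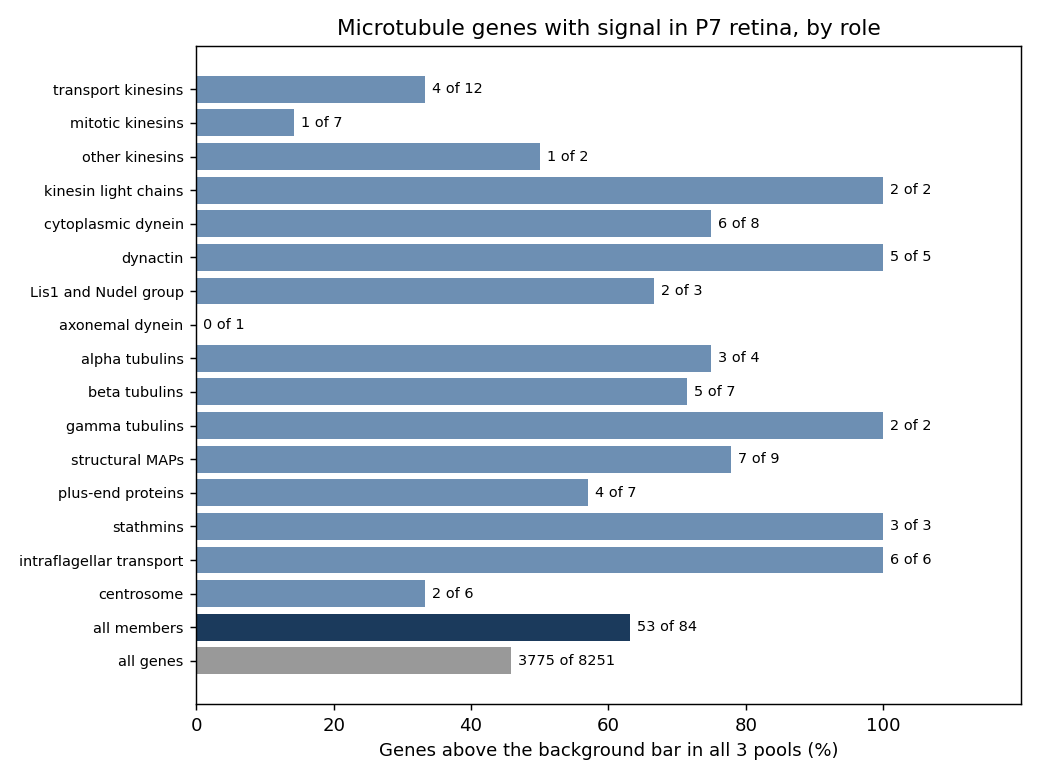
Percentage of measured genes above the background bar in all 3 pools, by role (bars, with the counts beside them); the last bars are the 84 microtubule genes and all 8251 genes, which include them. Dynactin, intraflagellar transport, stathmin, light chain and gamma tubulin genes all passed, whereas 1 of 7 mitotic kinesins did.

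Tubulin genes gave signal for 10 of 13 measured. Tuba1a, an alpha tubulin of newborn neurons, had intensities of 25127, 36844 and 31259 in pools 1, 2 and 3. Tuba1c, a closely related alpha tubulin, was at 24949, 37104 and 39240. Pool 1 was the lowest for both with the arrays set to a common median. Another Tuba1a probe set was at 19676, 24111 and 24653, also lowest in pool 1. After quantile normalisation the Tuba1a probe sets no longer shared their lowest pool. Among the beta tubulins, Tubb3, the neuronal isotype used as a marker of differentiated neurons, averaged 7531 ± 1042 (mean ± SD, n = 3 pools, as below). Tubb2a averaged 8708 ± 731, Tubb4a 3524 ± 283, and Tubb5, the isotype common to many dividing and resting cells, 14899 ± 2664. Tubb6 was at 507, 797 and 865, lowest in pool 1. The gamma tubulins, which nucleate microtubules, were at 642 ± 103 for Tubg1 and 420 ± 33.0 for Tubg2, and Tuba8 at 831 ± 168.

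Of these 10 genes, 7 were read by probe sets with a letter suffix, a sign that some of their probes may also match related transcripts, as were 11 of the 18 tubulin probe sets. The coding sequences of tubulin isotypes are very alike, so values of single isotypes are uncertain. The tubulin genes below the bar were Tuba4a (399, 276 and 198, above it in 2 pools), Tubb4b (200, 65.5 and 240) and the annotated pseudogene Tubb2a-ps2, at the floor in pool 1 and at 153 and 125 in pools 2 and 3. Tubb4b encodes a tubulin of axonemes. Its 1 probe set thus did not pass in any pool, which does not show that the gene was silent.

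The promoters of 5 tubulin genes are shown because their transcripts are hard to separate by probe, whereas the sequences before their starts differ. They come from RefSeq with build GRCm38.p6 and run over the 250 bases before the gene's first listed start, 5′ to 3′. Tuba1a lies at chr15:98953502-98953751 (minus strand), Tuba1c at chr15:99029641-99029890 (plus strand), Tubb2a at chr13:34078009-34078258 (minus strand), Tubb3 at chr8:123411303-123411552 (plus strand) and Tubb5 at chr17:35838302-35838551 (minus strand). Capitals mark 3 motifs searched on both strands: the TATA box (TATAAA), the CCAAT box (CCAAT) and the GC box (GGGCGG), none of which overlap here.
Tuba1a: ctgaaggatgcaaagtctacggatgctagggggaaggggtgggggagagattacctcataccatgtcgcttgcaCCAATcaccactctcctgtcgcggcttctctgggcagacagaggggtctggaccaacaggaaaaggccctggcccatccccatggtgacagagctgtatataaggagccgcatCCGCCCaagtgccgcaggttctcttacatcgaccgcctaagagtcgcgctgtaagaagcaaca
Tuba1c: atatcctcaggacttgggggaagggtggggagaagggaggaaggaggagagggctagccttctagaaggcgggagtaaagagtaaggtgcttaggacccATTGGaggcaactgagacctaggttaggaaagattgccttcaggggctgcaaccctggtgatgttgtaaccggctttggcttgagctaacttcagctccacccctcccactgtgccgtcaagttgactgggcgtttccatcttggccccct
Tubb2a: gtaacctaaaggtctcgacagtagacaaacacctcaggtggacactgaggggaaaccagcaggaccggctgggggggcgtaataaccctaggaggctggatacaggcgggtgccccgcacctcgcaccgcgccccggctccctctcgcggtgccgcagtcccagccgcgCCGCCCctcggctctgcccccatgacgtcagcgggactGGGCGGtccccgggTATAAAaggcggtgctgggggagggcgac
Tubb3: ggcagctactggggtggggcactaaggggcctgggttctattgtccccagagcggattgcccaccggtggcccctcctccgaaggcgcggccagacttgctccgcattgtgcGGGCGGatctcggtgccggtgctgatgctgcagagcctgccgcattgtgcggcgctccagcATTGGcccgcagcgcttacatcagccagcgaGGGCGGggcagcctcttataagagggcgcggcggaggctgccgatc
Tubb5: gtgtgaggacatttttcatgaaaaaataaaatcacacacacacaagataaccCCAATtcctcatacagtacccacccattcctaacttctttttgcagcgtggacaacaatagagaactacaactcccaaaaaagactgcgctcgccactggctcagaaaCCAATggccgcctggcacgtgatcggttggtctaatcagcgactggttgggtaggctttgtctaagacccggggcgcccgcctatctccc
Among these 5 promoters the TATA box as spelled was found in Tubb2a, 29 bases before the start, and a CCAAT box in Tuba1a, Tuba1c, Tubb3 and Tubb5. GC boxes were found in Tuba1a, Tubb2a and Tubb3. Promoter sequences were matched for 64 of the 84 microtubule genes, and among these 59.4% held a GC box, 43.8% a CCAAT box and 12.5% a TATA box. Of 27025 promoters 32.9% held a GC box, 34.5% a CCAAT box and 13% a TATA box. A match is a run of letters and not a site shown to be used.

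Stathmins, which bind tubulin dimers and favour the shrinking of microtubules, were all above background. Stmn1, the stathmin of proliferating and newborn cells, was at 11211, 10291 and 10521 in pools 1, 2 and 3, a range of 1.09-fold. Stmn3 and Stmn4, both neuronal, averaged 1965 ± 399 and 1096 ± 217. Both were lowest in pool 3. A second probe set of Stmn1 stayed at or near the floor (42.2, 42.2 and 50.3), and one of Stmn3 passed the bar in 1 pool (106, 150 and 517), so neither followed the chosen one.

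Proteins that bind along the microtubule were above background for 7 of 9 measured genes. Mapt, which encodes tau of axons, was at 2959, 4932 and 2266 in pools 1, 2 and 3. A second probe set of Mapt gave 2082, 3652 and 1731, and the remaining one 1579, 2136 and 1557. All 3 were thus highest in pool 2 and lowest in pool 3, with the arrays set to a common median, as deposited and after quantile normalisation. Map2, the dendritic MAP, was at 464, 1041 and 786, and Map6, which protects microtubules from cold, at 537, 844 and 806. These were lowest in pool 1. Map4, a MAP of many cell types, was instead highest there, at 1701, 1282 and 1255.

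Dcx, which encodes doublecortin of migrating young neurons, averaged 831 ± 98.9 and Map7, a recruiter of kinesin, 1795 ± 201. Map1s also passed, at 589 ± 137. Map1b, a MAP of growing axons, did not pass in any pool (228, 78.8 and 224). Map7d1 was below the bar by its chosen probe set (80.5 in pool 3, at the floor in the other pools), whereas a probe set of a less specific type gave 1161, 949 and 934. It was the 1 gene of the 84 that only a probe set other than the chosen one placed above background in all pools.

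Plus-end proteins, which ride on growing microtubule tips, passed for 4 of 7 genes. Mapre1, which encodes the end-binding protein EB1, averaged 2697 ± 224. Mapre3 was at 826, 772 and 807, a range of 1.07-fold, and Mapre2 at 843, 569 and 590. Clip1, the linker CLIP-170, averaged 679 ± 94.5. Clip3 and Clip4 passed in 1 and 2 pools (63.6, 219 and 317, and 452, 534 and 247), and Clip2 in none.

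**Figure D2:**
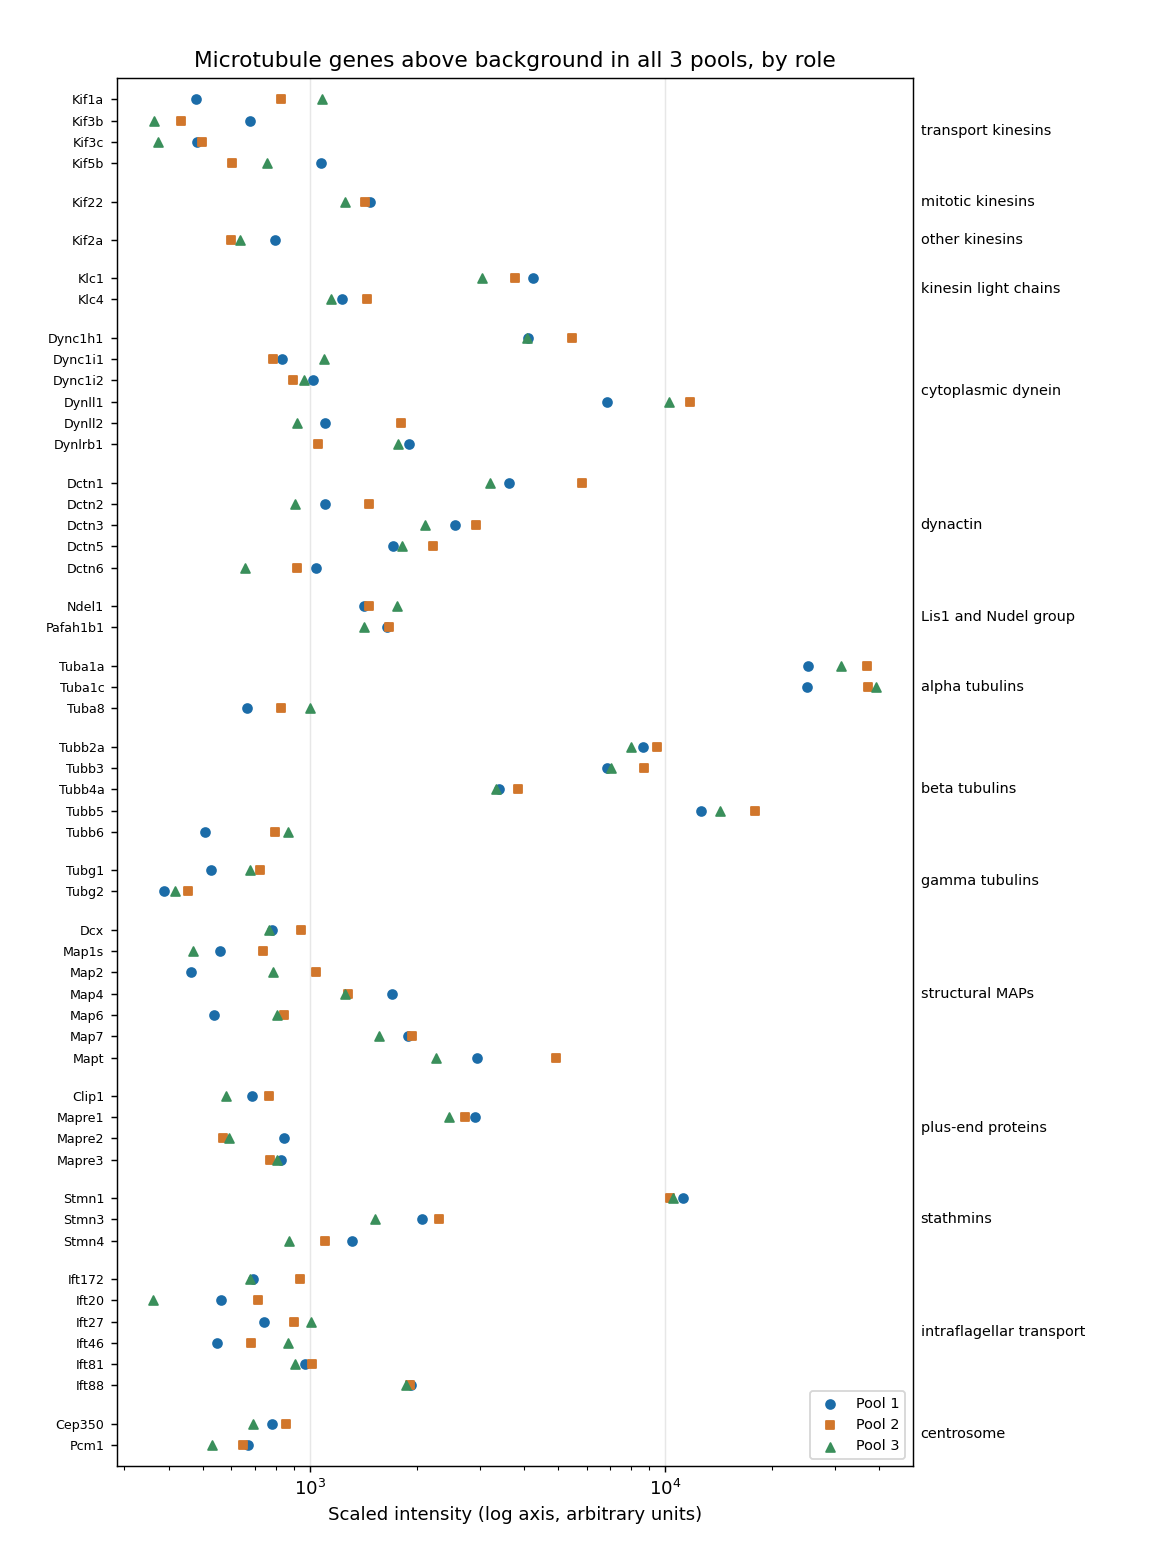
Scaled intensity (log axis) of the 53 microtubule genes above background in all 3 pools, 1 row per gene and 1 symbol per pool, grouped by role. Most genes span less than 1.5-fold, with Kif1a, Map2 and Mapt among the widest at 2.26-fold, 2.25-fold and 2.18-fold.

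Kinesin motors were mostly not above background. Of the 12 transport kinesins measured, which move vesicles, organelles and ciliary cargo, 4 passed. Kif1a, the motor of synaptic vesicle precursors, was at 479, 828 and 1083 in pools 1, 2 and 3, so pool 1 was the lowest and pool 3 the highest. Kif5b, the widely expressed heavy chain of conventional kinesin, ran differently, at 1075, 603 and 756. Kif3b and Kif3c, motor subunits of the kinesin-2 family, were at 676, 433 and 365 and at 482, 497 and 372. Kif3b forms the ciliary motor with Kif3a, whose chosen probe set was near the bar in every pool (249, 263 and 240) and marginally above it in pool 2 alone.

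The neuronal heavy chains Kif5a and Kif5c passed in 2 pools and 1 pool. Kif5a was at 187, 418 and 424 and Kif5c at 201, 361 and 292. Both were lowest in pool 1, below the bar there. Kif1b passed in pool 2 only (166, 335 and 251). Kif1c, Kif16b, Kifc2 and Kifc3 passed in none.

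Mitotic kinesins, which organise the spindle and drive its elongation and cytokinesis, passed for 1 of 7. It was Kif22, the chromokinesin that pushes chromosome arms, at 1386 ± 116, read by a probe set made under relaxed selection rules. Kif4, Kif11, Kif20a, Kif23, Kif2c and Kifc1 did not pass in any pool. The highest value of their chosen probe sets was 240, for Kif23 in pool 3. Among markers of dividing cells 8 of 18 measured genes passed. Kif2a, a microtubule depolymeriser at work in neurons and spindles, averaged 676 ± 105, and Kif9 did not pass. The kinesin light chains, which tie conventional kinesin to cargo, averaged 3691 ± 600 for Klc1 and 1272 ± 155 for Klc4.

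Cytoplasmic dynein passed for 6 of 8 genes and dynactin for 5 of 5. Dync1h1, the motor heavy chain, was at 4100, 5451 and 4071 in pools 1, 2 and 3. The intermediate chains, which bind dynactin, averaged 904 ± 165 for Dync1i1 and 957 ± 62.4 for Dync1i2. The LC8 light chain gene Dynll1 was at 6835, 11718 and 10247 and Dynll2 at 1102, 1801 and 921. The roadblock light chain Dynlrb1 was lowest in pool 2 by its chosen probe set (1895, 1051 and 1763) and in pool 1 by another (268, 366 and 417), which was below the bar there. Dynlt1b and Dynlt3, of the Tctex family, did not pass.

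Dctn1, the large dynactin subunit that holds dynein and the microtubule, was at 3621, 5821 and 3218. Dctn2, the dynamitin subunit, was at 1101, 1460 and 904 by its chosen probe set and at 989, 748 and 627, highest in pool 1, by another. Dctn3, Dctn5 and Dctn6, of the shoulder and the pointed end of dynactin, averaged 2532 ± 412, 1916 ± 271 and 871 ± 196. Pool 2 was the highest for 4 of these 5 genes by the chosen probe sets, beside 56.4% of all genes above background. After quantile normalisation it was the highest for 3 of 5, beside 1288 of 3776. With the arrays set to a common median, pool 3 was the lowest for 4 of 5, beside 45.9%. Pafah1b1 (Lis1), the dynein regulator lost in lissencephaly, averaged 1578 ± 138 and its partner Ndel1 1547 ± 181. Nde1 passed in 2 pools (312, 293 and 213).

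Intraflagellar transport genes passed for 6 of 6 by their chosen probe sets. Ift88, a core subunit without which mouse photoreceptor outer segments form abnormally, was at 1920, 1911 and 1862 in pools 1, 2 and 3, a range of 1.03-fold and the smallest spread of all microtubule probe sets tested. A second Ift88 probe set was at 552, 1057 and 1474, a range of 2.67-fold with pool 1 lowest. The pool order of Ift88 therefore differed between its probe sets. Ift81, another core subunit, averaged 963 ± 54.9, and Ift172, at the periphery of the same complex, 769 ± 144. Ift20, which links the Golgi to the cilium, was at 561, 716 and 362, and the small subunits Ift27 and Ift46 averaged 883 ± 133.8 and 699 ± 160. Other probe sets of Ift81 (151, 79.3 and 117) and Ift46 (55.1, 230 and 77.9) did not pass in any pool. Another of Ift27 passed in pools 1 and 2 but not in pool 3 (327, 271 and 49.1). The 1 axonemal dynein measured, Dnah8, a heavy chain of sperm tails and motile cilia, did not pass in any pool.

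Centrosome genes passed for 2 of 6: Pcm1, the scaffold of centriolar satellites, at 615 ± 74.9, and Cep350 at 776 ± 83.1. Cep250, which encodes the linker protein C-Nap1 that holds centrioles together, was at 575, 73.1 and 342. Pool 2 lay below the bar, so the value there is not a measured level and pool 1 was at least 2.19-fold above pool 2. Cep89 passed in pool 1 alone (301, 259 and 191), and Cep131 and Cep295nl in none.

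How far the pools differed was tested for 79 microtubule probe sets among the 6211 with the highest means. limma's variance model asked if a probe set varied more over the pools than others of its brightness. With no statement that the pools were prepared separately, p-values measure only the spread between these samples, which may be technical. One microtubule probe set, that of Cep250, had excess spread (limma adjusted p = 0.000206, SD 1.55 on the log2 scale), beside 83 of all 6211 (1.34%). Its SD and p rest on the pool 2 value below the bar, against which the measured gap is the bound of 2.19-fold given above. Without pool 2 the SD was 0.53 and the limma adjusted p 0.986. One call among 79 is near the share of all. The call was lost without further array scaling (limma adjusted p = 0.218, SD 1.65) and after quantile normalisation (limma adjusted p = 0.197, SD 1.56), although the SD was no smaller, and no microtubule probe set was called when pool 1, 2 or 3 was left out. Without pool 1 or pool 3, Cep250 fell below the brightness limit and was not tested.

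At an unadjusted p below 0.05 there were 9 of 79, beside 6.76% of all probe sets tested. These, apart from Cep250, were the second Ift88 probe set, Kif1a, Kif5a, Map2, Clip4, Dynll2 and 2 probe sets of Mapt, and none passed the adjustment, with limma adjusted p between 0.107 for Ift88 and 0.727 for Clip4. A range above 2-fold was seen in 10 of 79, beside 8.63% of all. Some of the 10, such as Cep250, Kif5a and Clip4, lay below the bar in at least 1 pool. Of the 53 genes above background, 3 had a range above 2-fold. The median SD over the pools was 0.26 on the log2 scale for the 79 and 0.26 for all 6211. The quartiles of the 79 were 0.17 and 0.36. Among the 53 genes above background, 64.2% had a range under 1.5-fold, beside 70.6% of all genes above background. Besides the chosen Ift88 probe set, that of Mapre3 (SD 0.05) was among the 3 steadiest. Kif3a (SD 0.06) was the other, but lay below the bar in pools 1 and 3, so its steadiness is not that of a measured level.

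**Figure D3:**
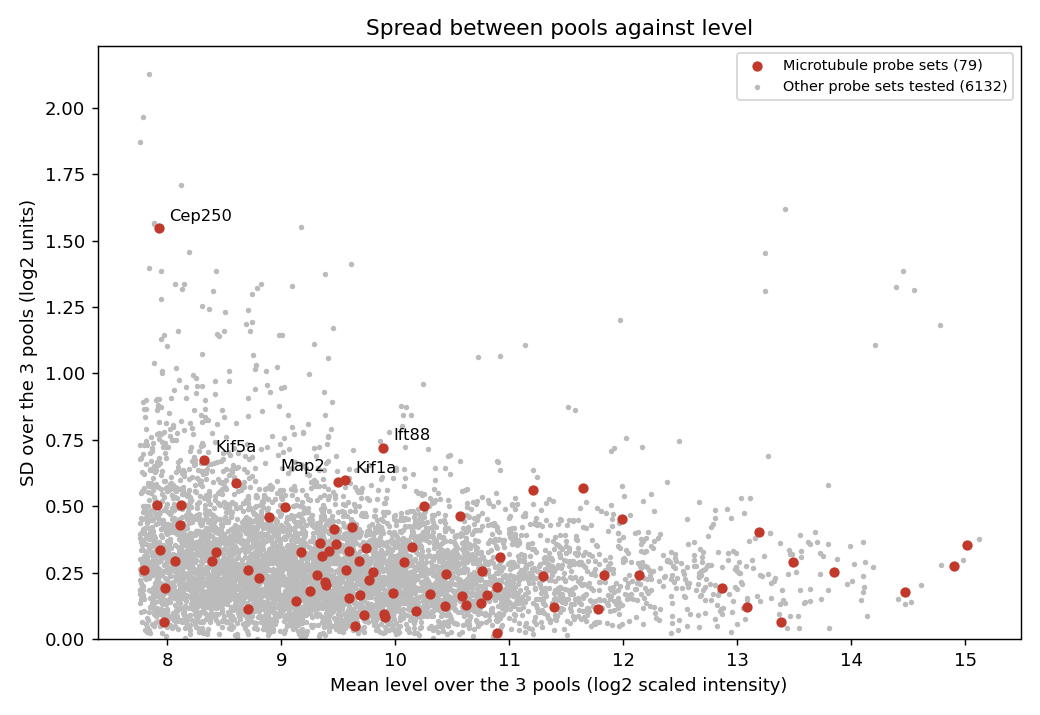
SD over the 3 pools against the mean level, both in log2 units, for the 79 microtubule probe sets and the other probe sets tested. The 5 microtubule probe sets with the widest spread are named. The SD of Cep250, 1.55, rests on a pool 2 value below background, as that of Kif5a does on pool 1; Ift88 is at 0.72.

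The direction of a role group across the pools depended in part on how the arrays were scaled. Genes above background as a whole had median log2 deviations from their own means of -0.04, 0.13 and -0.09 in pools 1, 2 and 3, and the 53 microtubule genes of -0.04, 0.13 and -0.11. Pool 3 was the lowest for 29 of the 53 microtubule genes (54.7%), beside 45.9% of all genes above background. Pool 1 was the lowest for 16 (30.2%), beside 37.4%, and pool 2 for 8 (15.1%), beside 16.7%. With the values as deposited, pool 3 was the lowest for 25 microtubule genes and for 1358 of all 3775, and after quantile normalisation for 22 and for 1351 of 3776.

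Tubulins were lowest in pool 1 for 8 of 10 genes, beside 37.4% of all genes above background, with medians of -0.25, 0.17 and 0.01. With the values as deposited it was again 8 of 10, beside 31.3%, with medians of -0.19, 0.05 and 0.07. After quantile normalisation it was 4 of 10, beside 33.6%, and the medians were 0.02, -0.01 and 0.00. Kinesins shared no direction over their 10 probe sets tested. Of these, 4 were highest in pool 1 (Kif22, Kif2a, Kif3b and Kif5b), beside 27.4% of all 6211, and 4 were lowest there (Kif1a, Kif1b, Kif5a and Kif5c), beside 37.6%. Of the 4 low ones, Kif1b, Kif5a and Kif5c lay below the bar in pool 1. Among the 6 kinesin genes above background, 4 were highest in pool 1, beside 25.9% of all genes above background. After quantile normalisation it was again 4 of 6, beside 1391 of 3776. A gene that is low in 1 pool can fail the bar for that reason, so counts over genes above background leave such genes out. Of the 15 tubulin probe sets tested, above the bar or not, 10 were lowest in pool 1. Dynactin genes were lowest in pool 3 for 4 of 5, at a median of -0.33 there, and at -0.24 after quantile normalisation. The stathmins were at 0.10, 0.03 and -0.31, and at 0.33, -0.10 and -0.23 after quantile normalisation, with pool 3 the lowest under both. Structural MAPs were at -0.08, 0.24 and -0.16 and intraflagellar transport genes at -0.06, 0.06 and -0.06. After quantile normalisation intraflagellar transport genes were at -0.02, -0.06 and 0.02, so that their order changed. These are counts and medians over few genes, some of which may share probes, and carry no test.

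**Figure D4:**
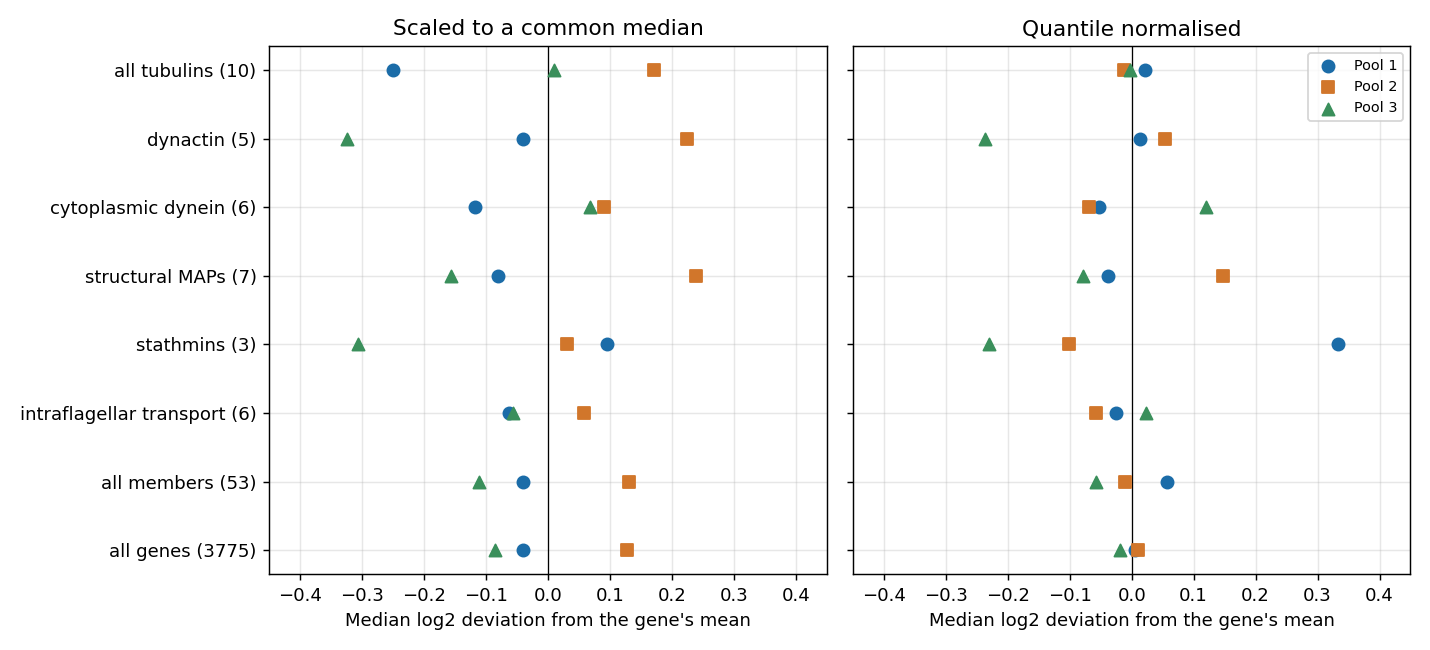
Median log2 deviation from each gene's mean over the pools, for role groups (number of genes in brackets), all 53 microtubule genes and all 3775 genes above background, after scaling to a common median (left) and after quantile normalisation (right). The low pool 1 value of the tubulins, -0.25 on the left, is 0.02 on the right, whereas dynactin is lowest in pool 3 on both sides.

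Where a gene was read more than once, its probe sets could be set against each other. Of the 29 microtubule genes with more than 1 probe set, 10 had more than 1 above background in all pools. In 7 of these 10 (70.0%) all such probe sets were lowest in the same pool, beside 36.8% of the 451 genes of the array with that many. For most of the 451 genes the lowest pool thus differed between probe sets, so a lowest pool read from 1 probe set is uncertain. If 36.8% exceeds the share for unrelated probe sets was not tested. In 5 of the 10 all were highest in the same pool, for which the share over all genes was not counted. Those sharing the lowest pool were Dctn2, Dynll2, Mapre1, Mapre3, Mapt, Tuba1a and Tubb5. For Ift88, Klc1 and Tubb3 the lowest pool differed. Dctn2, Dynll2 and Tuba1a shared the lowest pool but not the highest. After quantile normalisation 7 again shared the lowest, with Tubb3 in place of Tuba1a. The chosen Klc1 probe set was at 4242, 3778 and 3052, highest in pool 1, whereas the others were lowest there, at 490, 797 and 692 and at 1104, 1131 and 1265. Some probe sets of a gene were designed on the same transcript and share its errors.

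**Figure D5:**
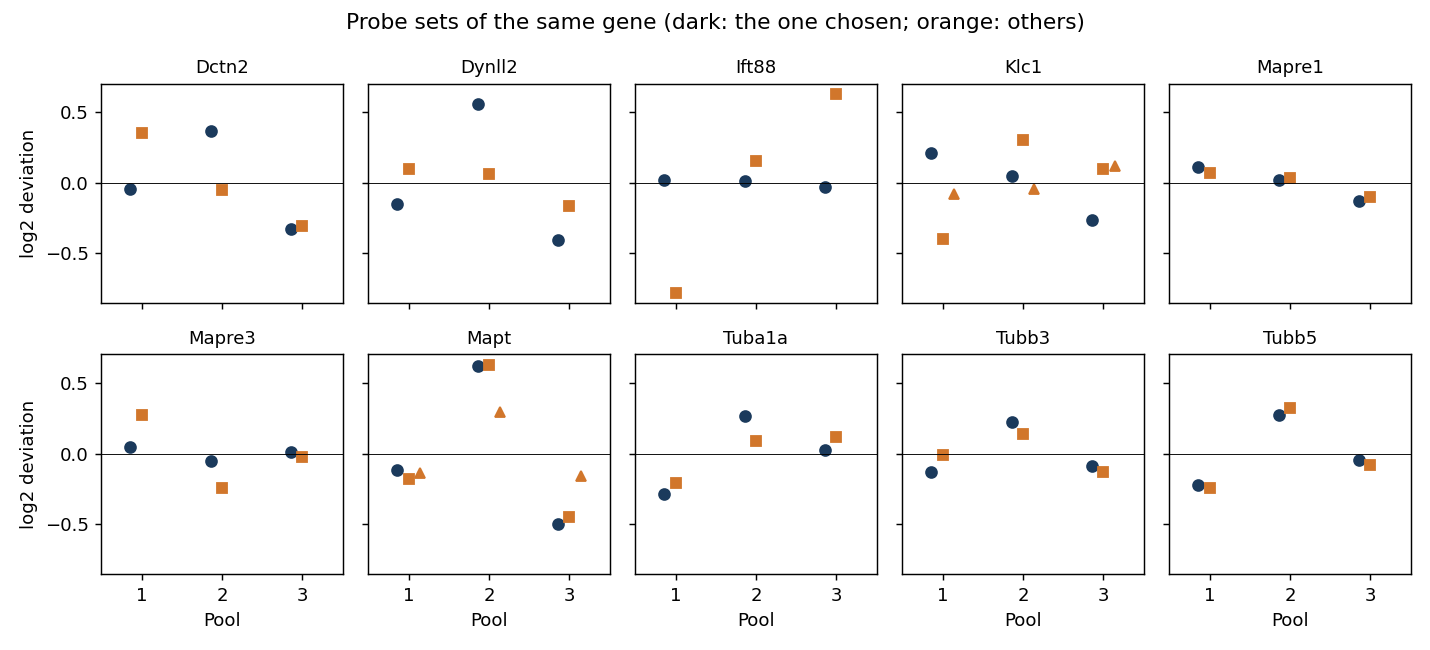
Log2 deviation from the probe set's own mean in each pool, for the 10 microtubule genes with more than 1 probe set above background (dark circles the chosen probe set, orange squares and triangles the others). The 3 probe sets of Mapt run together, whereas those of Ift88 do not.

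Genes of the same machinery outside the symbol rule were above background for 26 of 40 measured (65%), beside 45.8% of all genes. Among them were the kinesin-2 accessory subunit gene Kifap3 (2066 ± 328), the tubulin deacetylase gene Hdac6 (2646 ± 724), the neuronal stathmin gene Stmn2 (1885 ± 220), the spectraplakin gene Macf1 (4738 ± 1031), the severing enzyme gene Spast (1056 ± 53.1) and the photoreceptor gene Tulp1 (7863 ± 1713). None of the 37 probe sets of this list that were tested had excess spread by limma, 2 at an unadjusted p below 0.05, beside 1.34% and 6.76% of all. Of its centrosomal and axonemal genes, Odf2 (600 ± 162) and Ssna1 (1729 ± 336) passed, Nin passed in 1 pool, and Cntrob, Pcnt, Tekt1 and Tekt2 passed in none. Of its spindle genes, Numa1 (1606 ± 373), Ckap5 (1106 ± 204), Plk1 (430 ± 81.9) and Prc1 (329 ± 46.9) passed in all pools, and Cenpe, Tacc3 and Aurka in none. Another Plk1 probe set was below the bar in pool 1 (189, 358 and 474) and a further one in all pools (109, 132 and 171). Probe sets other than the chosen one also failed in every pool for Kifap3, Odf2 and Stmn2, although a further Stmn2 probe set passed.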

How the data were processed

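The authors deposited 1 intensity per probe set and array on a linear scale. How these were made is not given in the sources used here. From the values, the authors had scaled each array, to a mean without the lowest and highest 2% of 500.2, 500.3 and 500.2. Array number, 3, limits the precision. Control probe sets (66) were left out, leaving 12422. Platform gene names were matched by gene ID to RefSeq (GRCm38.p6); 10833 probe sets had 1 gene, 396 several and 1193 were unnamed here.

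Each array was multiplied by a factor (0.962, 1.09 and 0.959; a log2 shift of -0.06, 0.12 and -0.06) to a common median, floored at the 20th percentile of all values and put on the log2 scale. Per gene, a probe set without a letter suffix was chosen first, then the highest mean. Excess spread used limma 3.58.1 in R 4.3.3 (squeezeVar, robust, mean level as covariate) on the 50% of probe sets with the highest means, with 2 residual degrees of freedom, an upper-tail F test at the highest prior degrees of freedom, and Benjamini-Hochberg adjustment over all 6211 at 0.05. The script was tested on simulated data. The named genes were every called probe set; per role, the genes above background, or the 6 with the highest means; the 5 widest and 3 steadiest probe sets; and genes whose probe sets disagreed; others, such as genes below the bar, Map1s and related genes, were named after their values were seen. Members and lists were chosen with earlier results of these data known. Alternatives were scaling, filter, floor, prior, bar, probe set choice and leaving out each pool.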

Additional observations from a re-analysis of the deposited data

How the results depend on the processing

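The single call of excess spread among microtubule probe sets, Cep250, depended on the processing. The number of calls was 0 with the values as deposited, 0 with quantile normalisation, 0 when dim probe sets were tested too, 0 in the brightest 25%, where Cep250 was not tested, and 0 without any 1 of the pools. Over all probe sets these settings gave 6, 6, 0 and 27 calls, against 83, and 9 to 30 without each pool. At an unadjusted limma p below 0.05 there were 313, 340, 1113 and 165, against 420. These counts are out of 6211, 6211, 12422 and 3106 probe sets tested, against 6211, so they cannot be compared directly. Among microtubule probe sets the number stayed 1, again Cep250, with the floor at the 10th percentile and with log2(value + 50). It also stayed 1 without limma's robust option and without the level covariate. The limma adjusted p over these settings lay between 4.88e-05 and 0.0290. A range above 2-fold, which needs no test, was met by 10 probe sets, some of them below the bar in at least 1 pool. The prior degrees of freedom, which weigh the common variance, were 279 but 8.56 with the values as deposited and 8.66 after quantile normalisation. The cause of the lost calls was not tested.

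The number of microtubule genes above background, 53 of 84, lay between 42 and 66 under all alternatives. It was 42 when every probe set of a gene had to pass, beside 36.5% of all genes. With the brightest probe set per gene it was 52, beside 41.4%. It was 58 with a deposited value above 200, beside 53.4%, and 66 with the bar at the 75th percentile, beside 61.7%. The median SD of the tested microtubule probe sets, 0.26, lay between 0.21 and 0.29. The order of the median deviations of the microtubule genes per pool depended on the processing. Pool 2 was the highest, at 0.13, with the arrays set to a common median. After quantile normalisation pool 1 was the highest, at 0.06, and pool 2 was at -0.01. Pool 1 was at 0.02 with the values as deposited and at 0.05 without pool 2. Values below the background bar are not measured levels. No paired analysis was possible because there was 1 group.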
